A study of Mus musculus with 7 samples.

Results

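Long non-coding RNA genes (lncRNAs) are described here in mouse mammary glands at lactation day 1 (L1), when milk secretion has just begun. There are 9 of these genes, chosen by name as abundant nuclear lncRNAs (*Neat1*, *Malat1*), imprinted lncRNAs (*H19*, *Meg3*) and hosts of small nucleolar RNAs (*Gas5*, *Snhg1*, *Snhg3*, *Snhg8*, *Snhg12*). Of the 9, 8 were found among the 37310 genes of the count table, and 7 were among the 17175 genes that passed the filter on low counts. *Snhg8* was found under neither its symbol nor its RefSeq synonyms in the annotation of the table, and was not analysed here. *Snhg3* had 0 counts in all 7 libraries, which allows up to 3 counts in each. Of its exon bases, 86.3% are shared with *Gm17300* on the opposite strand, *Rcc1* and *Snora73a*, and reads over more than 1 gene had been left out of the counts, so that a 0 here says little about the RNA.

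RNA of whole mammary glands of C57BL/6 mice had been sequenced in 3 libraries labelled WT and 4 labelled *Tardbp* KO. In the study, WT mice were *Tardbp* wt/wt + WAP-Cre and KO mice were *Tardbp* fl/fl + WAP-Cre, so both groups carried the Cre transgene. The whey acidic protein (*Wap*) promoter drives this Cre in luminal epithelial cells from mid-pregnancy on, and it removes exons 2 and 3 of *Tardbp*, the gene of the RNA-binding protein TDP-43. Cells without this Cre keep the gene. The libraries match the mice of each genotype in number, so the p-values measure the spread between mice together with that of library preparation. *Tardbp* itself was at 187 ± 32.6 CPM (counts scaled to a common library size) in WT (SD, n = 3) and 188 ± 28.2 in KO (SD, n = 4), with a log2 fold change of 0.01 ± 0.18 (SE) and an adjusted p of 0.982 in edgeR's quasi-likelihood test. Counts of the whole gene in the whole gland therefore did not separate the labels, and the genotype of a library is given here only as labelled.

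Neat1 is the RNA scaffold of paraspeckles, nuclear bodies that hold proteins and RNAs back in the nucleus, and is made as a short and a long transcript from the same start. Malat1, its neighbour on the chromosome, gathers in nuclear speckles beside splicing factors. H19 and Meg3 are transcribed from the maternal chromosome only and are known from fetal growth. The host genes carry small nucleolar RNAs (snoRNAs) in their introns, which guide chemical modification of ribosomal RNA, while the spliced host RNA is usually degraded in the cytoplasm when ribosomes read it. TDP-43 binds UG-rich RNA, and Neat1 and Malat1 are among the RNAs it is known to bind.

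The UG repeats were unevenly spread over the 8 annotated genes. Runs of at least 3 TG dinucleotides (TGTGTG and longer, on the sense strand of the merged exons only) were found in 73.1% of the 17175 genes tested, with a median of 1.51 TG dinucleotides in runs per kb. *Neat1* held 28 runs with 104 TG dinucleotides, a number reached by 0.0873% of genes, and *Meg3* held 26 runs with 109, reached by 0.0699%. Both are long, and only 0.146% and 0.297% of genes have as many exon bases (20771 and 18089). Per kb, *Neat1* had 5.01 and *Meg3* 6.03 TG dinucleotides in runs, levels reached by 7.94% and 5.15% of genes. *Malat1* held 3 runs of 3 (1.29 per kb), *Snhg1* 2 runs, *Gas5* and *Snhg12* 1 run each, and *H19* and *Snhg3* none. The longest runs of the repeat-rich pair and 1 run of each other gene that has any are printed from the NCBIM37 (mm9) assembly, on the strand of the gene, with the run in capitals, to show how far the repeats of *Neat1* and *Meg3* exceed the rest.
Neat1, exon, chr19:5826024-5826053, minus strand: gagTGTGTGTGTGTGTGTGTGTGTGTGgtg
Neat1, exon, chr19:5825680-5825709, minus strand: tttgcataTGTGTGTGTGTGTGaacctgtg
Neat1, reach of the short transcripts, chr19:5842941-5842970, minus strand: attctgtcatacTGTGTGattaagaattcc
Meg3, exon, chr12:110803334-110803363, plus strand: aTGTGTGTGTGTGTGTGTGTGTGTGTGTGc
Malat1, exon, chr19:5799696-5799725, minus strand: tatagattgtagTGTGTGgttctcttttga
Snhg1, exon, chr19:8798721-8798750, plus strand: gagtataagtTGTGTGTGTGctacggggat
Gas5, exon, chr1:162966376-162966405, plus strand: gtaagcaatttTGTGTGTGcatgtggtccc
Snhg12, exon, chr4:131866542-131866571, plus strand: ctggggcaaagaTGTGTGccatgttggctg

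The longest run held 12 TG dinucleotides in *Neat1* and 14 in *Meg3*, and runs of these lengths were reached by 4.43% and 3.81% of genes. The *Meg3* run belongs to a cluster of 8 runs within 116 bases (chr12:110803315-110803430) that holds 44 of its TG dinucleotides. In *Neat1*, the annotated short transcripts reach position 3172 from the start and hold 3 runs, and the other 25 runs with 95 TG dinucleotides lie in the stretch that the long transcript alone covers. A match is a description of the letters and not a binding site.

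**Figure D1:**
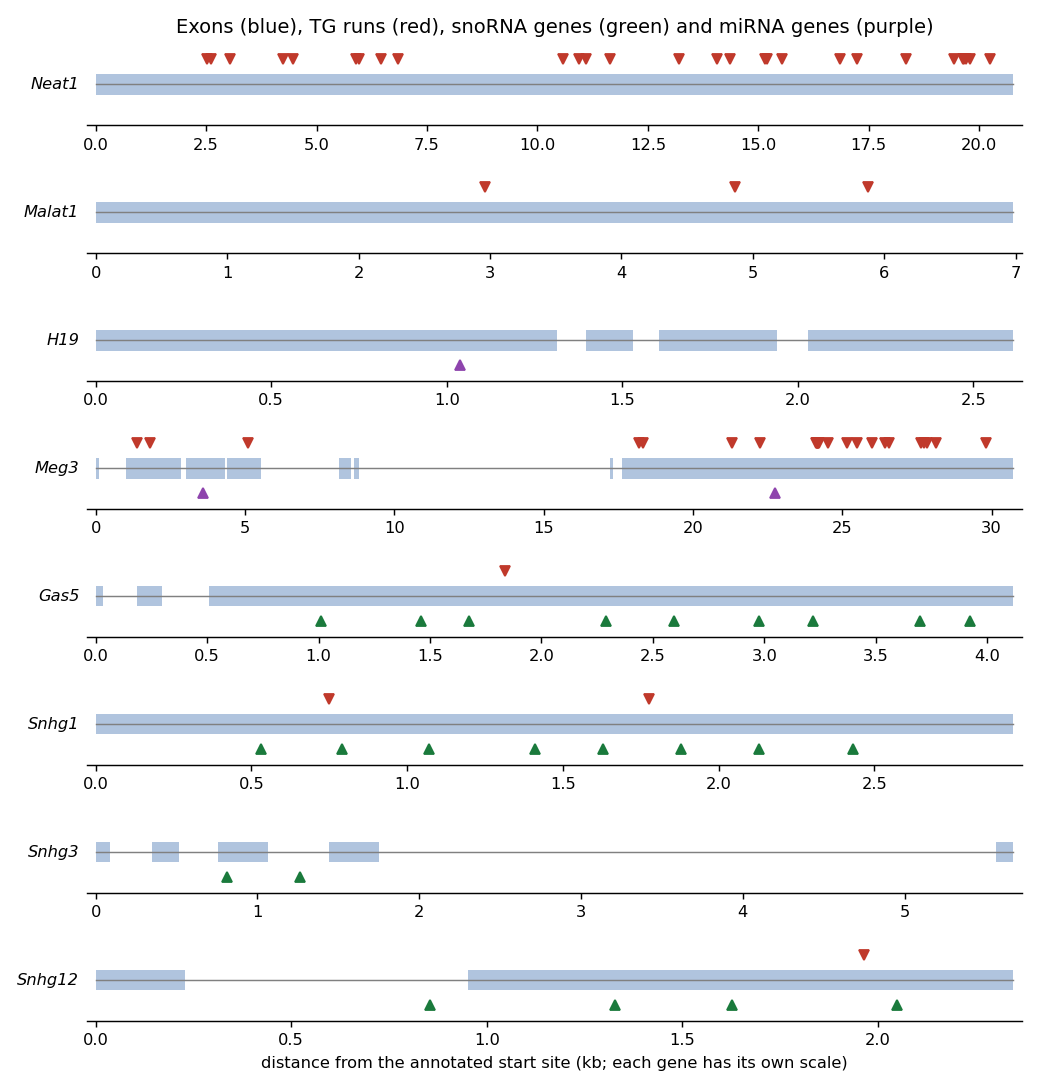
Annotated exons (blue bars), TG runs (red), snoRNA genes (green) and miRNA genes (purple) of the 8 annotated genes, by distance from the start site in kb, with a scale of its own for each gene. The 28 runs of *Neat1* lie mostly beyond 3172 bases and those of *Meg3* gather in its last exon, while *Gas5* and *Snhg1* hold 9 and 8 snoRNA genes.

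At the limits that the study used (an adjusted p below 0.01 together with a log2 fold change beyond 1 in either direction), none of the 7 lncRNAs was called by the quasi-likelihood test, and neither was any of the 17175 genes (0%). The study itself reported differentially expressed genes at these limits with edgeR, whose test it does not name. At an unadjusted p under 0.05, 1 of the 7 passed, *Neat1*, against 21.4% of all genes (3674), 10.7% higher and 10.7% lower in KO, and 12.2% of the 1243 lincRNA and processed transcript genes. The exact test of edgeR called 2.48% of genes (426) and DESeq2 3.51% (568), again with none of the 7. The median log2 fold change of the 7 was -0.02, beside 0.05 over all genes and 0.15 over the lincRNA and processed transcript genes. Only *Neat1* had groups that did not overlap, as had 18.7% of all genes. It was higher in KO, as were 9.07% of all genes without overlap and 8.53% of the lincRNA and processed transcript genes, while 9.62% of all genes were lower without overlap. In a bulk sample, fewer cells of a type and less RNA per cell cannot be told apart.

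*Neat1* (chr19:5824708-5845478, minus strand, 1 merged exon with no base shared with another gene) was the member with the widest difference. Its level, in CPM normalized with TMM factors, was 1399, 2436 and 639 in WT replicates 1 to 3 and 3212, 2486, 3011 and 3917 in KO replicates 1 to 4. All 4 KO libraries thus lay above all 3 WT libraries, but the WT libraries spread widely among themselves and WT replicate 2 came close to KO replicate 2. The mean was 1492 ± 902 (SD, n = 3) in WT and 3156 ± 592 (SD, n = 4) in KO, a ratio of 2.12. The log2 fold change of 1.08 ± 0.42 (SE; 95% interval 0.13 to 2.04) had an adjusted p of 0.188 in the quasi-likelihood test, 0.0859 in the exact test, 0.0794 in the likelihood ratio test and 0.0529 with DESeq2. It passed the threshold in none of the 4 tests, and by p it ranked 2808th of all genes. As a share of all counts, before any normalization, *Neat1* took 0.0541% to 0.207% in WT and 0.265% to 0.364% in KO. With library sizes alone in place of TMM factors the fold change was 1.43 (adjusted p = 0.0645), with the median of all genes shifted to 0.42.

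The size of this difference rested on single WT libraries. The quasi-likelihood log2 fold change was 1.63 without WT replicate 2 (adjusted p = 0.0559), 0.72 without WT replicate 3 (adjusted p = 0.397) and 1.04 without WT replicate 1. Leaving out a KO library gave 0.95 to 1.18. In lane 4, the only lane with both genotypes, 1 WT library at 2436 stood against KO libraries at 3011 and 3917, and the fold change was 0.51 (adjusted p = 1), in a fit that takes the lone WT library to vary like the KO pair. The sign was positive under each of these settings.

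**Figure D2:**
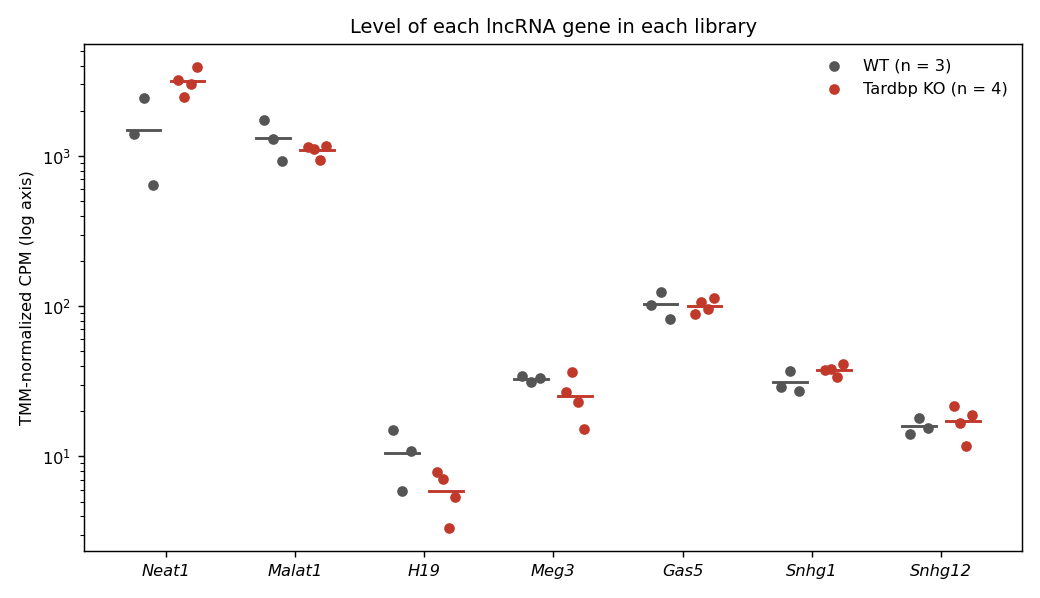
Level of the 7 tested lncRNAs in each library, in TMM-normalized CPM on a log axis, for 3 WT (grey) and 4 *Tardbp* KO libraries (red), with a bar at the mean of each group. For *Neat1* the KO points (2486 to 3917) lie above the WT points (639 to 2436), and for the other 6 the points of the groups overlap.

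*Malat1* (chr19:5795690-5802671, minus strand) was at 1736, 1297 and 924 CPM in WT and at 1145, 1108, 935 and 1175 CPM in KO. The KO libraries lay inside the WT range, with a mean of 1091 ± 107 (SD, n = 4) against 1319 ± 406 (SD, n = 3). The log2 fold change was -0.27 ± 0.24 (SE; 95% interval -0.83 to 0.28) with an adjusted p of 0.562 in the quasi-likelihood test. This interval leaves out a doubling in KO but not a fall of 0.83 on the log2 scale. *Gm20417*, on the opposite strand, shares 6.09% of its exon bases, whose reads were not counted. The WT order also differed between these neighbouring genes, since WT replicate 1 had the most *Malat1* and WT replicate 2 the most *Neat1*.

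**Figure D3:**
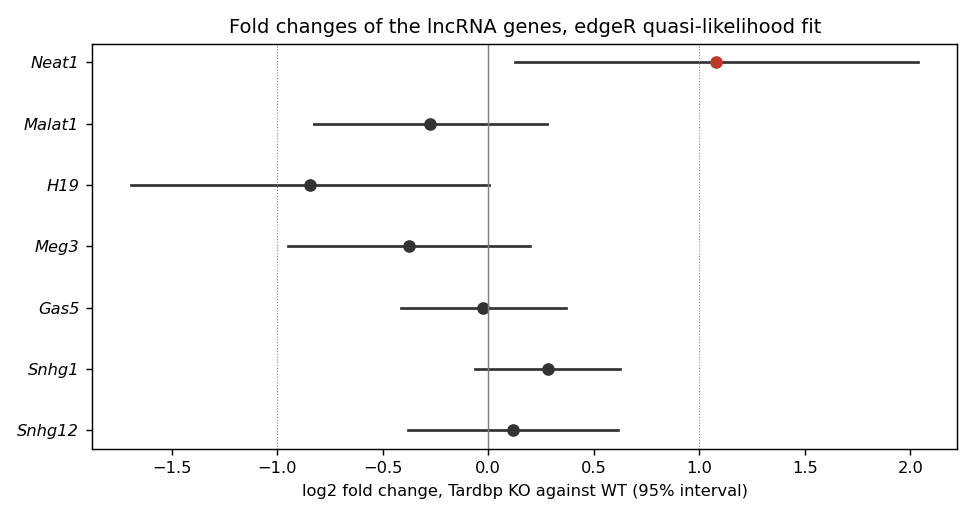
Log2 fold change of each lncRNA, KO against WT, with its 95% interval from the quasi-likelihood fit, and dotted lines at the study's limit of 1 in either direction. The interval of *Neat1* (0.13 to 2.04) is the only one that does not hold 0, and that of *H19* ends at 0.00163.

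Among the imprinted pair, *H19* (chr7:149761434-149764048, minus strand, also the host of *Mir675*) was at 15.1, 5.84 and 10.9 CPM in WT and at 7.86, 7.06, 3.34 and 5.33 CPM in KO. WT replicate 2 lay among the KO libraries. The log2 fold change was -0.85 ± 0.37 (SE; 95% interval -1.69 to 0.00), with an unadjusted p of 0.0504 and an adjusted p of 0.234 in the quasi-likelihood test. It ran from -1.14 without WT replicate 2 to -0.51 without WT replicate 1. These levels rest on 163 to 401 counts per library. *Mir675* inside it had 0 counts in all libraries. Reads that overlap the pair had been left out.

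*Meg3* (chr12:110779211-110809936, plus strand), the other repeat-rich RNA, was at 34.1, 31.5 and 33.0 CPM in WT and at 26.8, 36.2, 23.0 and 15.3 CPM in KO. The WT libraries were close together and the KO libraries lay on both sides of them. The log2 fold change was -0.38 ± 0.25 (SE; 95% interval -0.95 to 0.20), with an adjusted p of 0.432 in the quasi-likelihood test. The lncRNAs with the most TG dinucleotides, *Neat1* and *Meg3*, thus had fold changes of opposite sign, of which neither passed the threshold. Summed levels of 8 fibroblast markers were 2201, 1033 and 2859 CPM in WT and 2243, 3090, 1662 and 724 CPM in KO, so that KO replicate 2 was highest and KO replicate 4 lowest of the KO libraries in both measures. In WT the marker sum spread widely while *Meg3* hardly differed. WT replicate 2 was lowest in both, but WT replicate 3 was highest in the markers and WT replicate 1 in *Meg3*. The part of these cells in the *Meg3* values was not tested.

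*Gas5* (chr1:162964553-162968670, plus strand) is a host of 9 annotated snoRNAs, and its RNA also starts with the tract of pyrimidines of translation factor mRNAs. It had the highest level of the snoRNA hosts among the 7 tested lncRNAs. It was at 102, 125 and 81.6 CPM in WT and at 88.5, 106, 96.1 and 113 CPM in KO, with the KO libraries inside the WT range. Its log2 fold change was -0.02 ± 0.17 (SE; 95% interval -0.42 to 0.37), with an adjusted p of 0.957 in the quasi-likelihood test. Changes beyond 0.42 on the log2 scale in either direction lie outside this interval.

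*Snhg1* (chr19:8797986-8800932, plus strand), a host of 8 snoRNAs, was at 28.8, 37.2 and 27.1 CPM in WT and at 37.7, 38.3, 33.8 and 41.3 CPM in KO. One WT library, replicate 2, lay within the KO range. The log2 fold change was 0.28 ± 0.15 (SE; 95% interval -0.06 to 0.63), with an adjusted p of 0.327 in the quasi-likelihood test. *Snhg12* (chr4:131864593-131866939, plus strand), with 4 snoRNAs, was at 14.03, 18.1 and 15.5 CPM in WT and at 21.6, 16.7, 11.8 and 18.9 CPM in KO. The KO range enclosed the WT range, and the log2 fold change of 0.12 ± 0.22 (SE; 95% interval -0.38 to 0.61) had an adjusted p of 0.804. The annotation of the table includes the snoRNA genes in exons of these hosts, to 17.8% of the exon bases of *Gas5*, 20.9% of *Snhg1* and 20.5% of *Snhg12*, and reads over them were not counted for the host. None of the snoRNA genes in *Gas5* and *Snhg1* had a count, as reads over them also lay in an exon of the host and were left out. This 0 therefore says nothing about the snoRNAs. Of the 4 in *Snhg12*, 1, which lies in an intron, had 13 to 26 counts per library. *Snhg1* was annotated as a single exon over its whole length, so reads of its introns count as *Snhg1*. The merged exons covered 3760 of the 4118 bases of *Gas5* and 1626 of the 2347 of *Snhg12*. Reads of introns that lie within these merged exons count for those hosts as well.

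Levels of different genes were compared as CPM per kb of exon length. The length was that of all merged exons, 20771 bases for *Neat1*, whose short transcripts reach only position 3172. Transcripts were not separated, so the place of a gene in the order, above all of *Neat1*, depends on the share of each transcript. In WT the order was *Malat1* (189 ± 58.2), *Neat1* (71.8 ± 43.4), *Gas5* (27.3 ± 5.72), *Snhg1* (10.5 ± 1.84), *Snhg12* (9.77 ± 1.27), *H19* (4.47 ± 1.95) and *Meg3* (1.82 ± 0.0745; SD, n = 3 each). In KO it was *Malat1* (156 ± 15.4), *Neat1* (152 ± 28.5), *Gas5* (26.9 ± 2.89), *Snhg1* (12.8 ± 1.04), *Snhg12* (10.6 ± 2.55), *H19* (2.49 ± 0.846) and *Meg3* (1.399 ± 0.481; SD, n = 4 each). *Malat1* exceeded *Neat1* in all 3 WT libraries, at 132 to 249 CPM per kb against 30.8 to 117. In KO their ranges overlapped, and *Neat1* was the higher of the pair in replicates 3 and 4. *Snhg1* and *Snhg12* overlapped in both genotypes, *H19* and *Meg3* overlapped in KO, and *Neat1* and *Gas5* (21.7 to 33.1) overlapped in WT. Compared within each library, however, *H19* was above *Meg3* in every KO library and *Neat1* above *Gas5* in every WT library. *Snhg1* and *Snhg12* took both orders in each genotype. *Malat1* ranked 178th and *Neat1* 284th of all genes tested on this scale, and 47th and 19th by CPM.

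**Figure D4:**
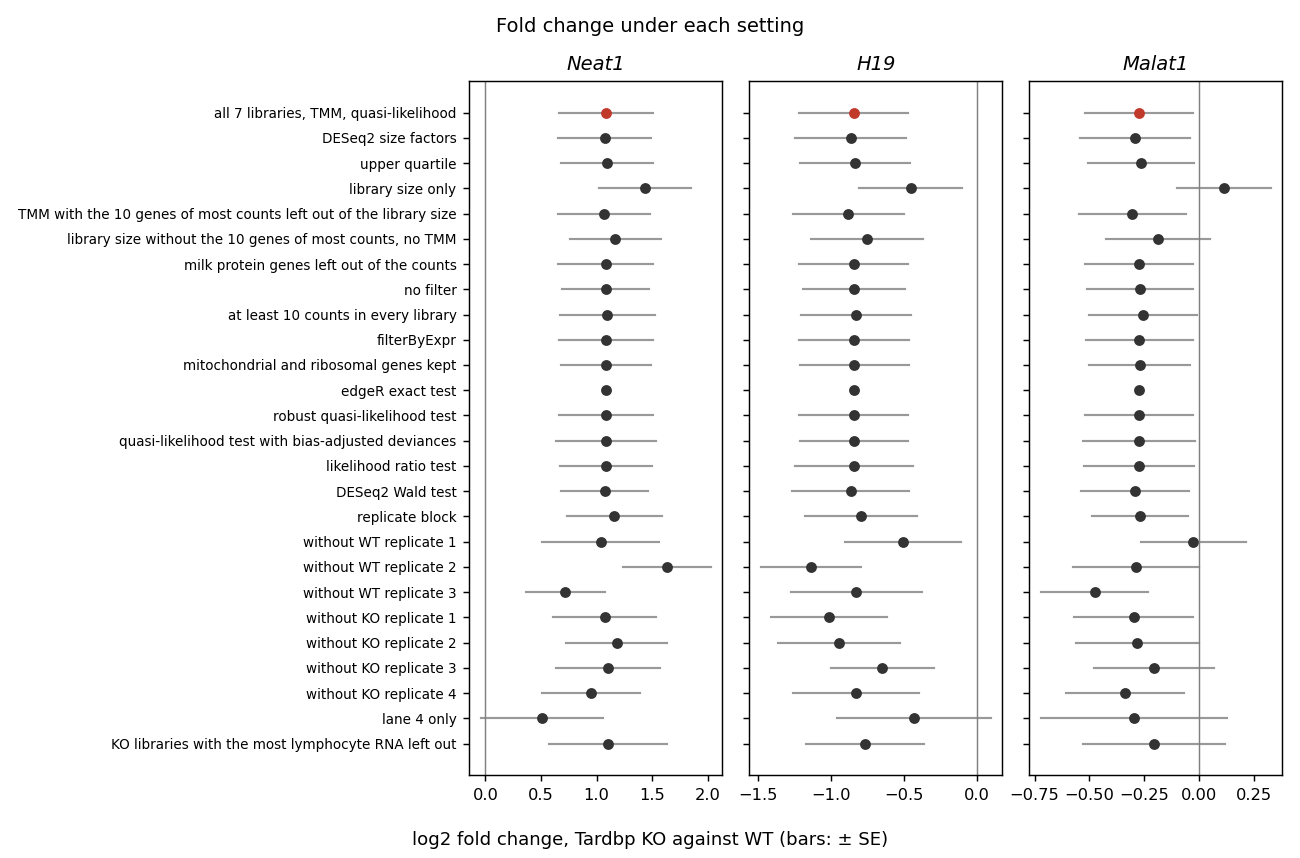
Log2 fold change (with SE where the test gives one) of *Neat1*, *H19* and *Malat1* under each normalization, filter, test and set of libraries, with the values reported in the text in red. *Neat1* stays above 0 (0.51 to 1.63), *H19* stays below 0 (-1.14 to -0.43), and *Malat1* is above 0 with library size only (0.11).

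The genes whose profile over the 7 libraries was most like that of a member depended on the log scale. With log2(CPM + 1), the smallest root mean square differences from *Neat1* were those of *Pnrc1* (0.261) and *Btg2* (0.282), beside an SD of 0.898 of *Neat1* itself. *Pnrc1* was at 48.9 CPM in WT and 98.4 CPM in KO, and *Btg2*, an antiproliferative early response gene, at 52.6 and 136 CPM. With edgeR's log2 CPM (prior count 2), a scale chosen after those values had been seen, the nearest were *Rbm42* (0.157), which was under 0.2 CPM in both genotypes, and *Gm15635* (0.179). For *Malat1* the first scale gave *RP24-341K21.6* (0.102) and *Gm15552* (0.107), both under 1 CPM, and the second *Rg9mtd2* (0.108) and *Zc3h7a* (0.118). *Rrnad1* was nearest to *Gas5* on both scales (0.0512 and 0.0494), with *Ccdc142* (0.0540) and *Klhl26* (0.0627) next.

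A list of 18 other host genes held hosts of snoRNAs and also *Mir17hg*, a host of microRNAs. Of the 18, 11 were tested, *Mir17hg* among them. At an unadjusted p under 0.05, 0 were higher and 2 lower in KO, beside 10.7% of all genes in each direction. The median log2 fold change was -0.10. *Snhg4* was at 9.44 ± 0.745 CPM in WT (SD, n = 3) and 6.64 ± 0.770 in KO (SD, n = 4), with groups that did not overlap. *Gm11974*, the *Snhg15* gene, was at 10.8 ± 3.89 and 5.91 ± 1.52 CPM. Their adjusted p was 0.164 and 0.146 in the quasi-likelihood test. The hosts with the highest level per kb, *1500012F01Rik* (*Zfas1*, log2 fold change 0.44 ± 0.29) and *2810008D09Rik* (*Snhg20*, -0.17 ± 0.22), had groups that overlapped.

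Another list held 16 proteins of snoRNPs, the particles in which snoRNAs work, or of the assembly of these particles. Of the 16, 13 had a negative log2 fold change, beside 7844 of all 17175 genes, and the median was -0.32. At an unadjusted p under 0.05, 4 were lower and 0 higher in KO, beside 10.7% lower over all genes. *Nolc1*, a chaperone of snoRNPs, had a log2 fold change of -1.11 ± 0.33 (SE) and an adjusted p of 0.115, and *Nop58*, a core protein of box C/D snoRNPs, -0.68 ± 0.25 and 0.166 in the quasi-likelihood test. The methyltransferase *Fbl* (-0.14 ± 0.22) and *Nhp2* of box H/ACA particles (-0.29 ± 0.23), the most abundant per kb, had groups that overlapped. In lane 4 alone the median was -0.10. With library size only it was 0.05, beside 0.42 over all genes.

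Paraspeckle proteins, the partners of Neat1, numbered 20, of which 2 were higher and 1 lower in KO at an unadjusted p under 0.05, beside the 10.7% of all genes in each direction. Their median of 0.09 on the log2 scale was 0.02 without KO replicate 1 and 0.02 in lane 4. *Pspc1*, a core paraspeckle protein, was at 12.4, 10.4 and 8.44 CPM in WT and at 16.3, 14.9, 14.5 and 16.1 CPM in KO. Its groups did not overlap, and the log2 fold change of 0.57 ± 0.18 (SE) had an adjusted p of 0.129 in the quasi-likelihood test. *Hnrnpr* was lower in every KO library than in every WT library (-0.33 ± 0.14, adjusted p = 0.202 in the same test). The most abundant per kb, *Hnrnpk* (-0.13 ± 0.15) and *Hnrnpa1* (-0.21 ± 0.16), had overlapping groups.

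Of 14 nuclear speckle proteins, the neighbours of Malat1 in the nucleus, none passed an unadjusted p of 0.05, and the median was -0.03. The lowest p were those of the splicing factor *Srsf3* (-0.36 ± 0.18, adjusted p = 0.287) and the kinase *Clk1* (0.46 ± 0.23, adjusted p = 0.288) in the quasi-likelihood test, while *Srsf2* (0.05 ± 0.20) and *Srsf5* (-0.14 ± 0.21) were the most abundant. Beside the 10.7% of all genes in each direction, among 17 genes of nonsense-mediated decay, which degrades spliced host RNAs, 1 was lower and 0 higher at an unadjusted p under 0.05 (median 0.03). That gene was *Nbas* (-0.71 ± 0.24), and *Smg6* (0.31 ± 0.15), *Eif4a3* (-0.24 ± 0.14) and *Pnrc2* (0.12 ± 0.13) did not pass. Another list held 20 mRNAs with the same start tract as *Gas5*, mostly but not all of translation factors. At an unadjusted p under 0.05, 2 were higher and 0 lower (median 0.05), beside 10.7% of all genes in each direction. The 2 were *Pabpc1* (0.48 ± 0.21) and *Nap1l1* (0.40 ± 0.16), of which *Nap1l1* is not a translation factor. *Eef1a1* (0.08 ± 0.24) and *Eef2* (0.38 ± 0.31) did not pass.

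Among 15 imprinted genes, none passed an unadjusted p of 0.05, and the median was -0.13. *Igf2*, the growth factor gene beside *H19*, was at 18.8, 17.99 and 15.4 CPM in WT and at 19.2, 6.56, 8.50 and 10.8 CPM in KO, where replicate 1 stood just above the WT range and the other 3 below it. Its log2 fold change was -0.63 ± 0.33 (SE), with an adjusted p of 0.317 in the quasi-likelihood test. *Peg3* (0.42 ± 0.21) and *Igf2r* (-0.29 ± 0.18) overlapped between groups. Of 10 other regulatory lncRNAs, 1 was lower in KO at an unadjusted p under 0.05 and 0 higher (median -0.04). This was *2900097C17Rik* (*Norad*), at 25.5 ± 8.35 CPM in WT and 16.6 ± 3.50 in KO (-0.62 ± 0.25, adjusted p = 0.205). *Pvt1* (-0.51 ± 0.29) and *6720401G13Rik* (*Firre*, -0.23 ± 0.19) did not pass.

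**Figure D5:**
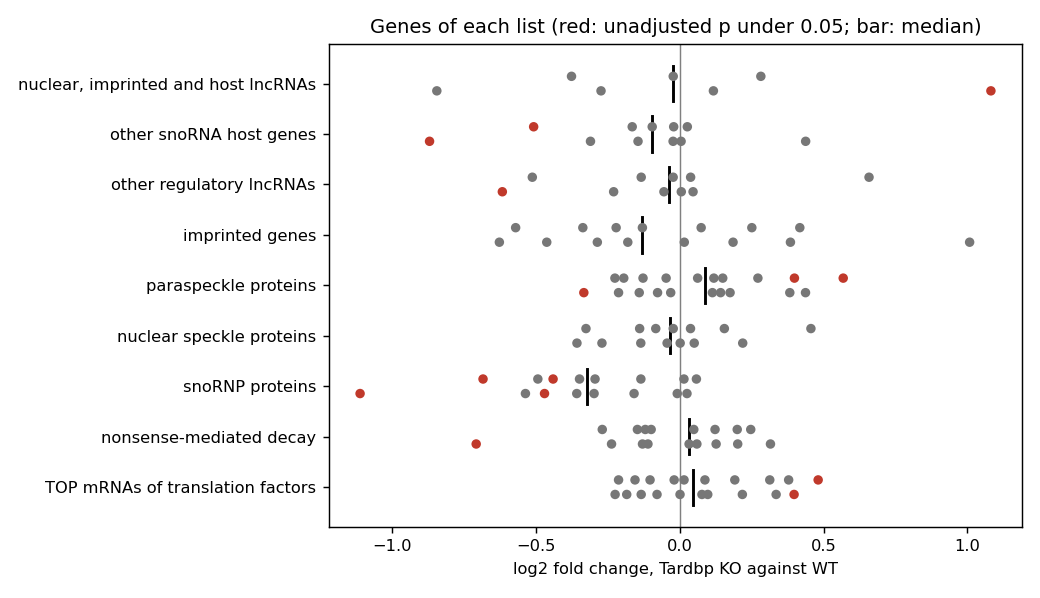
Log2 fold change (KO against WT) of each tested gene of the 7 lncRNAs and of 8 related lists, with red points for an unadjusted p under 0.05 and a black bar at the median of the list. The medians lie between -0.32 (snoRNP proteins) and 0.09 (paraspeckle proteins), and *Neat1* is the red point at 1.08.

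Libraries held 36007737 to 42811337 counts, and the RNA composition of the libraries differed with the labels. Whether cell numbers or RNA per cell differed was not tested. In the study, qRT-PCR found several milk protein genes of mammary epithelial cells unaffected by the loss of *Tardbp*. It also found the protein composition of milk alike in both genotypes. The 7 milk protein genes took 26.3% to 34.0% of counts in WT and 12.7% to 21.8% in KO. This share of counts is another measure than qRT-PCR. All 7 were lower in KO with groups that did not overlap, as were 9.62% of all genes. None was called, with an adjusted p of 0.0797 to 0.274 in the quasi-likelihood test. TMM factors were 0.781 to 0.909 in WT and 1.00 to 1.23 in KO. With the milk genes left out of the counts, the log2 fold change of *Neat1* was 1.08. TMM sets its factors without the genes of most extreme level or fold change, so this setting could hardly move the value. The part of milk RNA in the *Neat1* values was not tested. All 12 lymphocyte markers were higher in KO at an unadjusted p under 0.05, with a summed level of 43.1 to 63.9 CPM in WT and of 455, 76.7, 610 and 135 CPM in KO replicates 1 to 4. Without KO replicates 1 and 3, the log2 fold change of *Neat1* was 1.10 (adjusted p = 0.437 in the quasi-likelihood test). Luminal epithelium markers summed to 2691, 3575 and 2926 CPM in WT and to 2993, 3331, 3654 and 4333 CPM in KO, with 3 of 7 higher and 1 lower in KO at an unadjusted p under 0.05. WT replicate 2 and KO replicate 4 were highest within their groups both here and in *Neat1*. The lowest libraries differed, with WT replicate 1 and KO replicate 1 here and WT replicate 3 and KO replicate 2 in *Neat1*. Myeloid markers summed to 404, 1528 and 705 CPM in WT and to 1097, 2199, 2660 and 2462 CPM in KO, with 0 of 8 tested markers higher and 1 lower at an unadjusted p under 0.05, and *Cd14* alone ranged from 135 to 1299 CPM in WT and from 680 to 2262 CPM in KO. The part of luminal and myeloid cells in the *Neat1* values was not tested. The median log2 fold change was 0.55 for luminal epithelium (0.43 to 0.70 with 1 library left out in turn) and 0.57 for myeloid cells (0.33 to 0.80). It was -0.27 for myoepithelium (-0.72 without KO replicate 1 to -0.12 without WT replicate 1) and 0.35 for adipocytes (0.09 without KO replicate 2 to 0.46 without WT replicate 3). It took both signs for fibroblasts (-0.05, from -0.37 without KO replicate 2 to 0.33 without WT replicate 3) and endothelium (-0.11, from -0.20 without KO replicate 1 to 0.06 without WT replicate 3), with 8 markers in each of these lists of non-luminal cells. For the 6 of 8 skeletal muscle markers tested, whose summed level was 2.08 to 7.22 CPM, it was 0.06 (-0.40 without KO replicate 3 to 0.26 without WT replicate 2).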

How the data were processed

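The deposited values are whole-number counts per gene, not normalized. The authors prepared libraries from total RNA with an Illumina TruSeq kit, mapped paired-end reads to NCBIM37 (mm9) with STAR (2.5.2a in the submitters' processing notes, while the study's methods name another version) and counted reads on exons with featureCounts 1.4.6-p5. Per the file headers, no option for strand, pairs or multimapping reads was set, so both strands and both mates are counted, while multimapping reads and those over more than 1 gene are not.

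After removal of 37 mitochondrial and 580 ribosomal genes, 17175 genes passed a minimum of 5 counts in 4 or more of the 7 libraries. WT and *Tardbp* KO were compared with edgeR 4.0.16 (R 4.3.3), with TMM factors and the quasi-likelihood test on all genes, Benjamini-Hochberg adjusted, as the study's methods name edgeR without its test. DESeq2 1.42.0 and edgeR's exact and likelihood ratio tests were alternatives, beside other normalizations, filters, sets of libraries and a replicate block. Script steps were tested on simulated data. Counts at these totals hold sampling error, library preparation and differences between glands, which were not separated. Single exons and transcripts were not analysed.

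The genes, lists, the rule for ribosomal genes and the pair of libraries left out for lymphocyte RNA were chosen with earlier results of these data known. Named genes are the members, for each list the 2 most abundant per kb and the 2 of lowest p, and the 2 genes nearest in profile to *Neat1*, *Malat1* and *Gas5*. *Cd14*, named for its share of a marker sum, was chosen after its values were seen. Older symbols were matched through RefSeq synonyms. Library medians of lists use edgeR's log2 CPM with a prior count of 2, after a first run with 1 added. TG runs were counted in merged exons of the GENCODE vM1 annotation with Python 3.11.15, pandas 2.3.3 and numpy 2.4.6.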

Additional observations from a re-analysis of the deposited data

Results flagged for a closer look

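The marker list of myoepithelium, the contractile cells around the alveoli, had 1 library far from the others of its group. The median of its 8 markers relative to WT was 0.628 on the log2 scale in KO replicate 1 and -0.67, -0.70 and -0.56 in KO replicates 2 to 4, a gap of 0.894 of the range of the group. The summed level was 2893 CPM in that library, 979 to 1153 CPM in the other 3 KO libraries and 1128 to 1924 CPM in WT. Of 24 groups tested this way 1 stood out, and chance alone gives about 1 in 20. *H19* was highest in the same library among KO libraries (7.86 CPM). It was nearly as high in KO replicate 2 (7.06 CPM), which had the lowest summed level of these markers (979 CPM).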

How the results depend on the processing

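*Neat1* kept a positive and *H19* a negative log2 fold change under all 28 alternatives, 3 of which changed only the threshold. With library size only, in place of TMM factors, the median of all genes was 0.42 and that of the 7 lncRNAs 0.34, and *Gas5* (0.34), *Malat1* (0.11) and *Meg3* (0.0133) turned positive. *Gas5* also turned positive with library sizes without the 10 genes of most counts and no TMM (0.0623, chosen after seeing the data), without WT replicate 2 (0.14), KO replicate 1 (0.04) or KO replicate 3 (0.00087), and without KO replicates 1 and 3 together (0.10). *Snhg12* turned negative without KO replicate 1 (-0.0092) and in lane 4 (-0.24). The cause was not tested.

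None of the 7 was called under any alternative other than an unadjusted p under 0.05, which called 1, beside 3674 of all 17175 genes (21.4%). The number of the 7 with an unadjusted p under 0.05 was 2 with DESeq2's size factors, with library size only and with no filter. It was also 2 with the 10 genes of most counts left out (with or without TMM) and with bias-adjusted deviances. The exact, likelihood ratio and DESeq2 tests gave 2 as well, and the number was 0 without KO replicates 1 and 3. It ran from 0 to 3 when 1 library was left out, with 0 without WT replicate 1, WT replicate 3 or KO replicate 4 and 3 without WT replicate 2. Over all genes, calls at the study's limits were 426 with the exact test, 464 with the likelihood ratio test, 568 with DESeq2, 1 with no filter and 1 at an adjusted p under 0.05, against 3674 at an unadjusted p under 0.05. That last number was 5809 with library size only (5286 higher), 2158 without WT replicate 1, 699 in lane 4 and 2119 without KO replicates 1 and 3. When 1 library was left out, the fold change lay between -0.17 and 0.14 for *Gas5* and between -0.01 and 0.26 for *Snhg12*, and genes with an unadjusted p under 0.05 numbered 2158 (without WT replicate 1) to 4416 (without WT replicate 2).

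With 1 library left out, the median log2 fold change kept its sign for the list of other host genes (-0.22 to -0.00045), snoRNP proteins (-0.44 to -0.22) and paraspeckle proteins (0.02 to 0.10). It took both signs for nuclear speckle proteins (-0.12 to 0.03), nonsense-mediated decay (-0.07 to 0.03) and mRNAs with the start tract of *Gas5* (-0.04 to 0.14). The same held for imprinted genes (-0.23 to 0.09) and other regulatory lncRNAs (-0.13 to 0.00106).

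The labels number both groups, but deviations of same-numbered libraries correlated at 0.351, 0.0941 and -0.06, so the numbers were not taken as pairs. With a replicate block the log2 fold change of *Neat1* was 1.16 (adjusted p = 0.161), the median of the 7 lncRNAs was -0.06, and no call changed.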
